A study of Mus musculus with 25 samples.

Results

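After 4 h of stimulation, the macrophage cell line RAW264.7 and primary bone marrow-derived macrophages (BMDMs) were called different in 28.5% of the tested genes. The comparison set 2 RAW264.7 samples treated with LPS against 3 BMDM samples treated with IFN-γ and LPS, which are 5 of the 25 samples of the series. Members were chosen by these sample labels alone, and all genes were tested in 1 fit. A gene was called at an estimated difference of at least 4-fold (a log2 fold change of 2) and an FDR of at most 0.01. The FDR was against no difference, not against 4-fold. By these limits, 1291 genes were higher in RAW264.7 and 1638 were higher in BMDMs. Among the genes higher in BMDMs were Il12b, Tnf, Cxcl9, and all tested guanylate-binding proteins and MHC class II genes. Among those higher in RAW264.7 were mitotic and DNA replication genes, Mycn, Ccl2, Csf2, Csf3, Lif and Osm.

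BMDMs came from C57BL/6 mice and were differentiated in M-CSF, the macrophage growth factor, at 25 ng/ml over 4 days. The stimulated BMDMs received 100 U/ml IFN-γ and 100 ng/ml LPS, with LPS present for 4 h. RAW264.7 is a single mouse line that was transformed with Abelson murine leukemia virus and has a BALB/c background. It received 100 ng/ml LPS for 4 h without IFN-γ and without M-CSF. Untreated controls of each kind (3 BMDM and 2 RAW264.7 samples, labelled 4 h) entered the same fit and supplied the level before stimulation. The age and sex of the mice and the length of IFN-γ priming are not given in the sources used here. Cell kind, strain, culture medium and IFN-γ therefore all differed between the stimulated groups and cannot be told apart. BMDMs stimulated with LPS alone were not analysed here.

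LPS, a component of the Gram-negative bacterial wall, is recognised by Tlr4 with Cd14 and Ly96. Its adaptors Myd88 and Ticam1 lead to NF-κB and to IRF factors, which induce cytokines and interferon-β. IFN-γ signals through its own receptor and induces Irf1, Ciita, the interferon-inducible GTPases and antigen presentation genes. Priming with IFN-γ is known to raise the macrophage response to LPS.

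Values are counts of reads on the strand of each gene, scaled to CPM (counts scaled to a common library total) with TMM factors after the ribosomal precursor Rn45s was left out. Rn45s took 20.1% to 38.1% of the counts on genes over the 10 libraries, and 1502618 to 2391998 counts were left per library. In this range, 3 counts correspond to 1.05 to 2.75 CPM, so genes below that level could not be told from absent. The TMM factors were 0.695 to 0.7256 in the stimulated BMDMs and 1.147 to 1.184 in stimulated RAW264.7. Genes that BMDMs induced took 29.4% to 30.4% of the counts in stimulated BMDMs and 8.91% to 9.12% in stimulated RAW264.7. Scaling by total counts instead moved the median log2 fold change of all genes from -0.048 to 0.665, and upper quartile scaling moved it to 0.254. Differences below are relative to the TMM centre. Log2 fold changes are RAW264.7 minus BMDM, so negative values are higher in BMDMs. Levels of stimulated cells are given for each library and those of controls as mean ± SD over 3 BMDM or 2 RAW264.7 samples. The study describes replicates as independent RNA samples, and p-values measure only the spread between these samples.

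Macrophage marker genes were present in both kinds of cell, with 1 exception. Summed over the 10 listed markers in the files, the level was 23800 to 25800 CPM in stimulated BMDMs and 10500 to 11100 CPM in stimulated RAW264.7, where only Mertk, a receptor for the uptake of dying cells, was at 0. All 6 markers of fibroblasts and stroma had counts in BMDMs, with sums of 97.7 to 150 CPM after stimulation, and all 6 were at 0 in RAW264.7. Neutrophil markers summed to 38.4 to 51.5 CPM in stimulated BMDMs and 0.405 to 1.41 CPM in stimulated RAW264.7. Of these markers, the 3 that were tested, S100a8, S100a9 and Ngp, were called higher in BMDMs, both stimulated and control. The granule genes Mpo and Elane were at 0 in every BMDM library. T and NK cell, B cell, mast cell and erythroid marker lists each summed to less than 1 CPM in every stimulated library, and the 6 dendritic cell markers summed to 5.5 to 11.8 CPM in stimulated BMDMs and 2.83 to 3.24 CPM in stimulated RAW264.7. The part of other cell types in the differences was not tested. In such bulk samples, fewer cells of a type and less RNA per cell cannot be told apart. Xist, the RNA of the inactive X chromosome, had 259, 223 and 268 CPM in stimulated BMDMs and 0 in every RAW264.7 library, whereas the Y-linked gene Ddx3y had 45.9, 65.7 and 71.8 CPM in those same BMDM libraries and 78.2 and 72.7 CPM in stimulated RAW264.7.

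The quasi-likelihood test of edgeR was run on 10269 genes, of which 1291 (12.6%) were called higher in stimulated RAW264.7 and 1638 (16%) were called higher in stimulated BMDMs. The 2 RAW264.7 values did not overlap with the 3 BMDM values for 8340 genes (81.2%), so a lack of overlap alone was common. The balance turned with the scaling, with 65.5% of calls higher in RAW264.7 under total counts and 53.2% under upper quartile scaling, against 44.1% with TMM. Between the untreated controls, 1012 genes (9.85%) were higher in RAW264.7 and 1305 (12.7%) were higher in BMDMs. The 2 contrasts share no sample. Of the genes higher in stimulated BMDMs, 914 were also higher in control BMDMs, which is 55.8% of the stimulated calls and 70% of the control calls. Of the genes higher in stimulated RAW264.7, 777 were also higher in control RAW264.7, which is 60.2% and 76.8%. A further 709 genes passed as higher in BMDMs after stimulation without a call in the controls, and 510 did so as higher in RAW264.7.

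**Figure D1:**
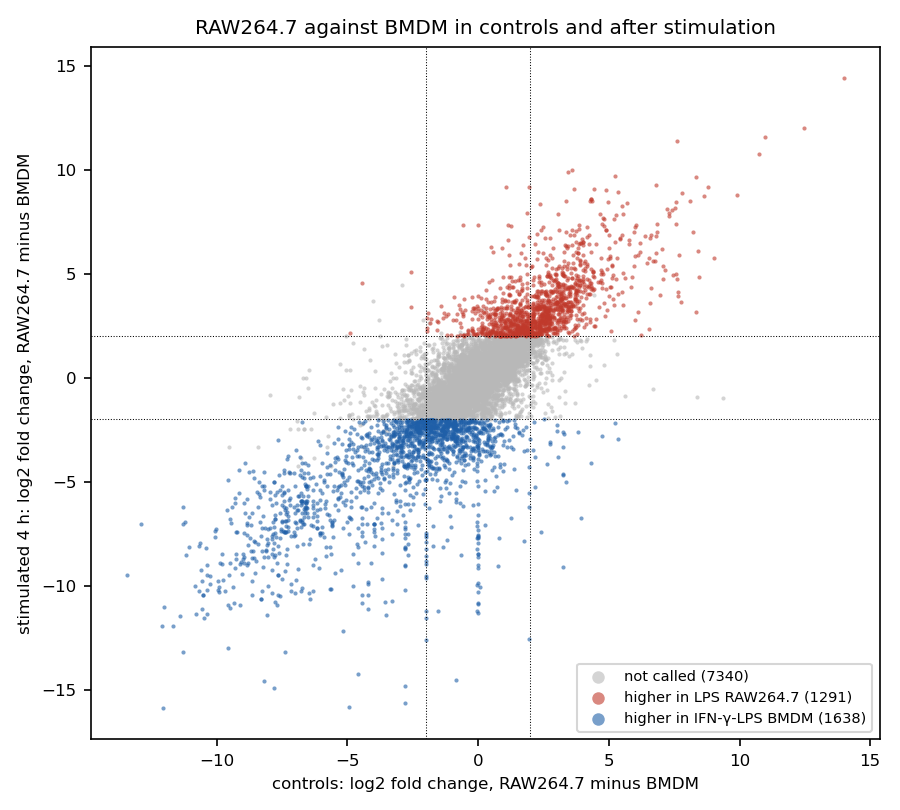
Each point is 1 of 10269 tested genes. The x axis gives the log2 fold change between untreated controls and the y axis that between the stimulated groups (RAW264.7 minus BMDM), with dotted lines at the cutoff of 2 in size. Genes called higher in stimulated RAW264.7 (red, 1291) and in stimulated BMDMs (blue, 1638) lie along the diagonal where controls already differed, and blue points reach far below it at a control difference near 0. Where a group is at 0, the position depends on a small prior count.

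By the size of the difference, the 12 leading genes higher in stimulated BMDMs (with at least 50 CPM there) were Slamf7, Tnfsf15, Il12b, H2-Ab1, Cxcl9, H2-Aa, Ifi205, AW112010, Pla2g7, Slco3a1, Cd200 and Cxcl1. All 12 had 0 counts in both stimulated RAW264.7 libraries, so their differences are bounds set by 3 counts in a library. Slamf7, a receptor of the SLAM family on chromosome 1 (mm10, 171632403 to 171653035), had 3709, 3889.8 and 3591 CPM in the 3 BMDM libraries and was at least 3069-fold higher there. Tnfsf15, a TNF family ligand, had 3215, 4245 and 3651 CPM and was at least 3048-fold higher. Slamf7, Pla2g7 and Cd200 were already present in control BMDMs, at 266 ± 9.43, 159 ± 14.8 and 48.0 ± 5.14 CPM. Pla2g7 encodes the platelet-activating factor acetylhydrolase of plasma and Cd200 an inhibitory ligand of myeloid cells. AW112010, by contrast, had 1.47 ± 0.833 CPM in control BMDMs and 1229.9, 1257 and 1204 CPM after stimulation. In RAW264.7 controls all of these except Ifi205, at 0.183 ± 0.258 CPM, were at 0 as well.

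The 12 leading genes higher in stimulated RAW264.7 were Rprl3, Mycn, Spink5, Fxyd2, Eno1b, Cdca7, Kif18b, Slc9a4, Fam167b, Csf3, Acy1 and Col4a5. Mycn, a MYC family transcription factor on chromosome 12 (mm10, 12936093 to 12941914), had 257 and 256 CPM in the 2 RAW264.7 libraries and 0 in all BMDM libraries, controls included, and was at least 93.2-fold higher. It was at 358 ± 11.4 CPM in RAW264.7 controls. Spink5, a serine protease inhibitor, had 193 and 188 CPM and Fxyd2, a regulatory subunit of the sodium pump, 166 and 172 CPM, both with 0 in stimulated BMDMs. Col4a5, a collagen IV chain, had 54.3 and 62.9 CPM against 0, 0.801 and 0 CPM. Of the 12, Csf3 was the only one with a called rise over its own RAW264.7 control, and the other 11 were called higher in control RAW264.7 too, with control means from 30.2 CPM (Slc9a4) upward. Rprl3, an RNA of the RNase P family, and the enolase copy Eno1b have near-identical copies among which reads can be split. Rprl3 had 1512 and 1203 CPM and Eno1b 106 and 116 CPM in RAW264.7, against 0 in stimulated BMDMs. Both values are therefore uncertain, and Eno1 itself had 0 counts in all 10 libraries.

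Secreted cytokines were mostly higher in stimulated BMDMs. Of 22 listed cytokines tested, 14 were called higher in BMDMs and 4 higher in RAW264.7, where 16% and 12.6% of all tested genes were. The median log2 fold change of the list was -3.50, against -0.048 for all genes. In all, 23 gene lists were described, of whose 400 entries 366 were tested. Il12b, the p40 subunit shared by IL-12 and IL-23 (chromosome 11, mm10, 44400063 to 44414033), had 3024, 3202 and 3402 CPM in the BMDM libraries and 0 in both RAW264.7 libraries, a difference of at least 2641-fold. Il12a, the other subunit of IL-12, had 37.6, 40.1 and 30.4 CPM in BMDMs and 0 in RAW264.7, at least 29.6-fold. Neither subunit thus had a read in LPS-treated RAW264.7. Tnf, a principal inflammatory cytokine, rose in both kinds of cell and ended higher in BMDMs, at 11550, 11692 and 10662 against 1445 and 1429 CPM (log2 fold change -2.97, SE 0.0949, adjusted p = 2.35e-66). Il6 had 663, 749.8 and 709.7 against 72.5 and 56.9 CPM (log2 fold change -3.46, SE 0.115, adjusted p = 4.48e-63) and Il27, an IL-12 family cytokine, 2680.0, 2342 and 2236 against 13.0 and 17.0 CPM (log2 fold change -7.32, SE 0.143, adjusted p = 2.20e-91). Il1a and Il1b, the interleukin-1 ligands, rose from at most 2.59 CPM in any control group mean and were not called between the stimulated groups: Il1b had 6947, 8049 and 8058 CPM in BMDMs and 2350.2 and 2311 CPM in RAW264.7, a log2 fold change of -1.72. The groups did not overlap for either gene.

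The 4 cytokines higher in RAW264.7 were Csf3, Lif, Csf2 and Osm. Csf3, the granulocyte growth factor G-CSF (chromosome 11, mm10, 98701263 to 98703629), had 211 and 189 CPM in RAW264.7 and 0.917, 0 and 0 CPM in BMDMs, where 1 read was counted in all 3 libraries together, a ratio of 703 (95% counting interval 126 to 27795). Csf2, the growth factor GM-CSF, had 41.7 and 43.1 CPM against 0.917, 1.60 and 0 CPM, a ratio of 49.8 (95% counting interval 16.8 to 243). Both intervals cover counting error only. Lif and Osm, IL-6 family cytokines that signal through gp130, were the other pair. Lif had 539 and 561 CPM in RAW264.7 against 29.3, 23.2 and 16.9 CPM in BMDMs (log2 fold change 4.58, SE 0.139, adjusted p = 7.42e-69). Osm had 117 and 128 CPM in RAW264.7 against 17.4, 11.2 and 12.7 CPM in BMDMs (log2 fold change 3.16, SE 0.187, adjusted p = 9.44e-36). Control RAW264.7 had 0 Lif and 7.85 ± 0.767 CPM Osm.

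Chemokines split by gene. Of 7 CXC chemokines tested, 6 were higher in BMDMs and none higher in RAW264.7, with a list median of -6.60. Cxcl9, a Cxcr3 ligand that attracts T cells (chromosome 5, mm10, 92321347 to 92328079), had 1717, 2132 and 1664 CPM in BMDMs and 0 in RAW264.7, at least 1512-fold higher. Of the related Cxcr3 ligands, Cxcl10 had 2231, 2111 and 2236 CPM in BMDMs against 11.3 and 14.5 CPM in RAW264.7, and Cxcl11 had 111, 129 and 106 against 0.810 and 1.41 CPM. Of the neutrophil-attracting ligands, Cxcl1 was present only in the BMDM libraries of the 2 stimulated groups, at 386, 405 and 384 CPM against 0. Its neighbour Cxcl2 had similar levels in both, at 1024, 1147 and 1143 CPM in BMDMs and 973 and 903 CPM in RAW264.7 (log2 fold change -0.24, SE 0.0876, adjusted p = 0.0107), and this small difference turned in sign under scaling by total counts or by the upper quartile. Of 9 CC chemokines tested, Ccl3, Ccl4 and Ccl5 were higher in BMDMs and Ccl2 was higher in RAW264.7. Of all tested genes, 16% and 12.6% were called in these directions, so 1 of 9 lies near the RAW264.7 share. Under scaling by total counts, 2 CC chemokines were higher in RAW264.7 and 1 in BMDMs, the calls of Ccl3 and Ccl4 being lost. Without RAW264.7 replicate 1, 5 of 10 CC chemokines then tested were higher in BMDMs. Ccl5, a T cell attractant, had 3505, 2668 and 2557 against 34.8 and 30.4 CPM (log2 fold change -6.48, SE 0.135, adjusted p = 1.35e-66). Ccl2, the monocyte attractant, had 444, 455 and 409 CPM in BMDMs and 1956 and 1808 CPM in RAW264.7 (log2 fold change 2.11, SE 0.0896, adjusted p = 6.38e-51), and RAW264.7 controls already had 71.4 ± 14.2 CPM.

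**Figure D2:**
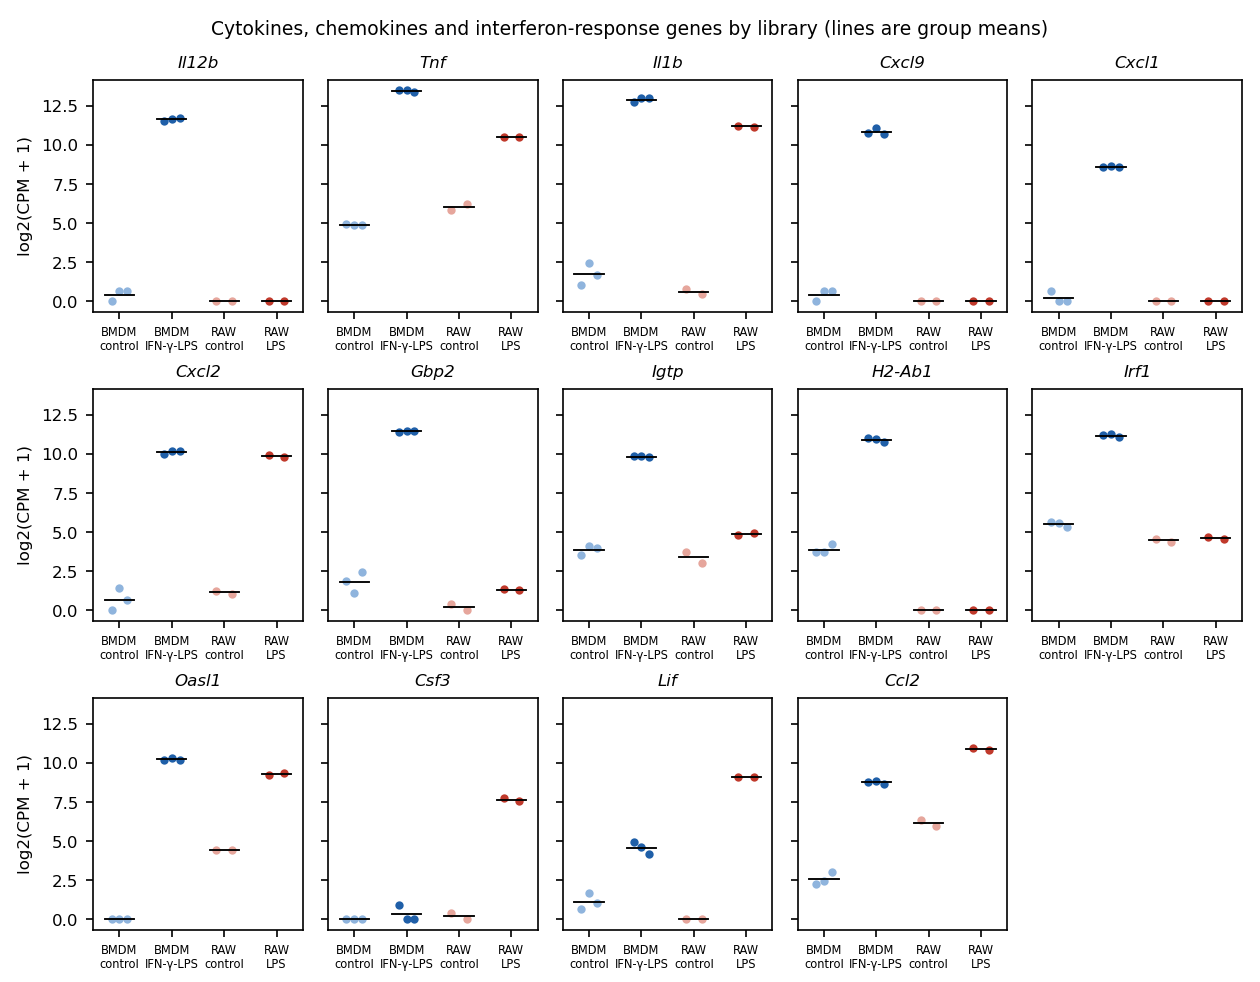
Each panel gives log2(CPM + 1) of 1 gene in each library of the 4 groups, with group means as lines. Il12b, Cxcl9, Cxcl1 and H2-Ab1 are at 0 in every RAW264.7 library, Cxcl2 reaches like levels in both stimulated groups, and Csf3, Lif and Ccl2 are higher in stimulated RAW264.7.

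The tested interferon-inducible GTPases were higher in BMDMs without exception. Guanylate-binding proteins (GBPs) and immunity-related GTPases act on vacuoles that hold intracellular pathogens. All 9 tested GBPs and all 9 tested immunity-related GTPases were called higher in BMDMs, where 16% of all tested genes were. Of these, 2 GBPs and 3 immunity-related GTPases had 0 counts in stimulated RAW264.7 and could be called only toward BMDMs. The medians were -8.00 and -10.00, or -7.26 and -6.92 with genes at 0 set to their bound. The fitted GBP median was -9.19 without RAW264.7 replicate 2, and -9.13 and -9.08 without BMDM replicates 1 and 3, where 8 GBPs were tested and called. Gbp2 had 2727, 2835 and 2781 CPM in BMDMs and 1.62 and 1.41 CPM in RAW264.7 (log2 fold change -10.79, SE 0.190, adjusted p = 6.23e-101). Gbp5, which promotes inflammasome activation, had 5902, 6898 and 6148 against 1.22 and 3.88 CPM. Gbp4 had 149, 147 and 180.0 CPM in BMDMs and 0 in RAW264.7, at least 131-fold higher. Of the immunity-related GTPases, Tgtp2 had 406, 380.5 and 366 CPM against 0 and Iigp1 633, 831 and 822 CPM against 0 and 0.353 CPM. Tgtp1 and Tgtp2 are near-identical neighbours, so their separate values are uncertain. Irgm1 and Irgm2 differed least within this family, with Irgm1 at 1731, 1763 and 1555 against 173 and 161 CPM (log2 fold change -3.34), and both rose in RAW264.7 over its control by the same cutoffs. Gbp2b and Gbp10 were too low to test.

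The bases before the start of 6 of these genes are shown because the GTPases moved together and because Cxcl1 and Cxcl2 did not. They are the 250 bases upstream of the RefSeq start (build GRCm38.p6), read 5′ to 3′ on the strand of the gene. Capitals mark matches on either strand to GAAA followed after 2 bases by GAAA, the core of the interferon-stimulated response element (ISRE), to TTC followed after 3 bases by GAA, the gamma-activated sequence (GAS) of interferon-induced promoters, or to GGGA followed after 2 bases by TTCC, a κB-like sequence.
Gbp2 (chr3:142620413-142620662, + strand): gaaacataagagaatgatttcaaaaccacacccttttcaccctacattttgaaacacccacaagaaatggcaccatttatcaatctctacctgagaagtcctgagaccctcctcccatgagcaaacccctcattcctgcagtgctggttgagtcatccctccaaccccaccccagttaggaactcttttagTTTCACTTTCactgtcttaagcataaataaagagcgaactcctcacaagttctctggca
Igtp (chr11:58199306-58199555, + strand): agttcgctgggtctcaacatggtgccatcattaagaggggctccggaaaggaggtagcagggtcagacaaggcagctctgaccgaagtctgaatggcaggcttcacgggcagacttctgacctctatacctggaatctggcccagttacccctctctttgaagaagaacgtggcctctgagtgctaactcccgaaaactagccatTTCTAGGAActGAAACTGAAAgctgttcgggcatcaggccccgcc
Tgtp2 (chr11:49064213-49064462, - strand): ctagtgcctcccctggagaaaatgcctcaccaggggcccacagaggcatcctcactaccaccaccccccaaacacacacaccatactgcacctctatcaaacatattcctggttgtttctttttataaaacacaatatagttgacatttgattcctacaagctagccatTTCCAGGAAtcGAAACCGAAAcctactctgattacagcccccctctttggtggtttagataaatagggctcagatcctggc
Cxcl10 (chr5:92348890-92349139, - strand): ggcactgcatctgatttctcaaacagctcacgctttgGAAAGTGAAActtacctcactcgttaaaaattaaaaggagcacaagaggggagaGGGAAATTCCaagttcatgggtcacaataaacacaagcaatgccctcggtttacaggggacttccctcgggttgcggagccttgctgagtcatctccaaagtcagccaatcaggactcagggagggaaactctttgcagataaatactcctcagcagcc
Cxcl1 (chr5:90890995-90891244, + strand): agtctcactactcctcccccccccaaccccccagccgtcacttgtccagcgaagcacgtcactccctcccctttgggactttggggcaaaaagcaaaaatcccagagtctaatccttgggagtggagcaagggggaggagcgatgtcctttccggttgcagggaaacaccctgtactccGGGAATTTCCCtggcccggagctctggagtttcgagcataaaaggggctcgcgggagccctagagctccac
Cxcl2 (chr5:90903649-90903898, + strand): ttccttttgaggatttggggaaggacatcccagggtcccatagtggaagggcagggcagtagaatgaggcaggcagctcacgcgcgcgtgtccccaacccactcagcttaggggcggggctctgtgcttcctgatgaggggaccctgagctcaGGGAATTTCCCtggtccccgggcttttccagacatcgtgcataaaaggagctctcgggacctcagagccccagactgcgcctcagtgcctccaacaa
In Igtp the GAS match began 45 bases and the ISRE match 34 bases before the start, and in Tgtp2 they began at 81 and 70. The distance between the 2 matches was 11 bases in both, as it was in Irgm2 and Tgtp1. Gm12250, Gbp5, Gbp7 and Cxcl14 also held both kinds of match, at other distances, such as 80 bases in Gbp5 and 19 bases in Cxcl14. Irgm1 had no GAS match and Ifi47 had no match of any kind. Cxcl1 and Cxcl2 both held the same 11 bases with 2 overlapping κB-like matches, which began 71 and 97 bases before their starts. Whether any of these matches acts in either kind of cell was not tested. An ISRE match was found in 5 of 5 GBPs with a RefSeq promoter, in 6 of 7 immunity-related GTPases and in 2 of 7 CXC chemokines. These counts include genes too low to test: Gbp2b, with a match, and Cxcl13 and Cxcl14, the latter with a match. The ISRE share was 3.46% of all 27025 genes with a promoter in the table and 3.4% of the 7893 tested genes matched by symbol. Among matched genes higher in stimulated BMDMs it was 7.53%, among those not called in the controls 10.8%, and among genes higher in RAW264.7 2.73%. GAS matches (8.13% of all promoters, 7.23% of tested genes) had shares of 8.72% and 7.52% among genes higher in BMDMs and in RAW264.7. The κB-like matches (1.36% of all, 1.57% of tested genes) had shares of 2.38% and 1.74%. These shares describe letters in the window and were not tested.

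Genes of the type I interferon response, which interferon-β made after LPS also induces, were higher in BMDMs for 24 of 30 members and higher in RAW264.7 for none. Over all tested genes the shares were 16% and 12.6%. The list median was -3.73 (20 members higher in BMDMs under total counts, 23 under upper quartile scaling). Mx1, an antiviral GTPase, had 1887, 1587 and 1762 against 3.65 and 2.83 CPM (log2 fold change -9.06, SE 0.177, adjusted p = 1.09e-93), and Rsad2, the antiviral enzyme viperin, 5932, 6931 and 6843 against 16.2 and 19.4 CPM (log2 fold change -8.51, SE 0.144, adjusted p = 2.27e-100). Ifit2, which binds viral RNA, had 3973, 4639.5 and 4539.6 CPM in BMDMs and 22.3 and 16.6 CPM in RAW264.7. The 6 members without a call were Oas1a, Oas1g, Oas2, Oasl1, Ifi44 and Rtp4. They were also among the members that control RAW264.7 held above control BMDMs, where 7 of the 30 were called higher in RAW264.7 (9.85% of all genes). Oasl1 had 20.7 ± 0.137 CPM in control RAW264.7 and 0 in control BMDMs, then 596 and 658 CPM in stimulated RAW264.7 and 1164, 1266 and 1167 CPM in stimulated BMDMs. Usp18, an inhibitor of interferon receptor signalling, was the seventh, and it went from higher in control RAW264.7 (19.3 ± 0.412 CPM) to higher in stimulated BMDMs (978, 911 and 891 against 157 and 153 CPM). Ifnb1 itself had 26.6, 25.6 and 18.6 CPM in BMDMs and 2.43 and 0.706 CPM in RAW264.7 (log2 fold change -3.91, SE 0.427, adjusted p = 1.67e-15).

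Antigen presentation genes differed in both MHC classes. All 8 tested class II genes were higher in BMDMs, where 16% of all tested genes were. The median was -10.34, or -7.07 with genes at 0 set to their bound, and the fitted median was -9.35 without RAW264.7 replicate 2. H2-Aa, H2-Ab1, H2-Eb1 and Ciita had 0 counts in every RAW264.7 library. They passed the count filter only through BMDMs and could be called only in that direction. H2-DMb2, H2-Oa and H2-Ob were too low to test. H2-Ab1, a class II chain (chromosome 17, mm10, 34257689 to 34269419), had 2074, 1975 and 1749 CPM in BMDMs and no read in any RAW264.7 library, at least 1590.4-fold. H2-Eb1 had 285, 316 and 267 CPM against 0, and Ciita, the co-activator that class II transcription depends on, had 91.7, 93.7 and 73.5 CPM against 0, at least 71.0-fold. Cd74, the invariant chain, behaved otherwise: it was present in RAW264.7 at 299 ± 11.7 CPM before and 303 and 322 CPM after LPS, whereas BMDMs went from 47.6 ± 1.35 CPM to 5713, 5446 and 5149 CPM. In class I, 15 of 16 tested genes were higher in BMDMs, with a median of -2.93 (10 genes under total counts, 12 under upper quartile scaling), and Erap1, a peptide-trimming enzyme, was not called. H2-T23, a non-classical class I gene, had 1627, 1617 and 1405 against 36.5 and 31.4 CPM (log2 fold change -5.52, SE 0.126, adjusted p = 1.37e-85) and the peptide transporter gene Tap1 1081, 991 and 1009 against 34.0 and 43.8 CPM (log2 fold change -4.71, SE 0.123, adjusted p = 6.66e-78). B2m, the light chain of class I, had 4971, 4978 and 4189.8 against 616 and 576 CPM. Among the class I genes in the controls, only H2-T23 passed as higher in BMDMs and only H2-Q4 as higher in RAW264.7. Of the 8 class II genes, 6 were already higher in control BMDMs and 1, Cd74, in control RAW264.7 (control median -5.18). Over all tested genes the control shares were 12.7% and 9.85%. Members of the H2 family share sequence, and between strains their alleles differ, so single values are uncertain.

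**Figure D3:**
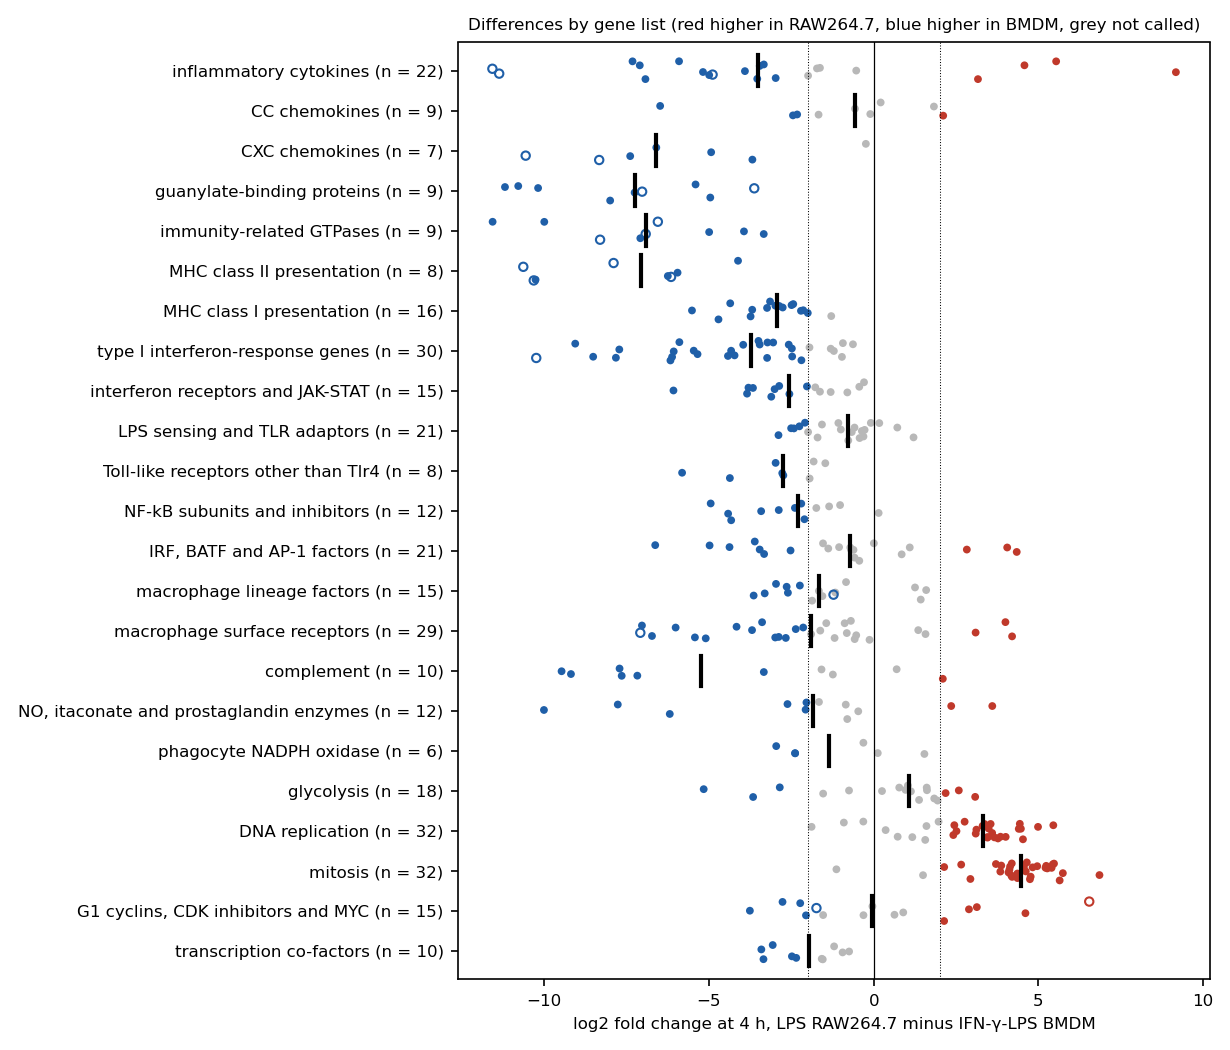
Each point is a tested gene of 1 of 23 lists, placed by its log2 fold change between the stimulated groups. Black bars are list medians and open points are genes with 0 counts in 1 group, drawn at the bound of 3 counts in a library. Interferon and MHC lists lie wholly left of 0 and the DNA replication and mitosis lists mainly right of it, while LPS sensing lies on both sides.

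Receptors and signal carriers had list medians nearer to 0 than the lists of interferon-induced genes. Of 15 genes of interferon receptors and the JAK-STAT pathway, 9 were higher in BMDMs and none higher in RAW264.7 (median -2.56), with 7 higher in BMDMs under total counts. Over all tested genes, 16% were higher in BMDMs and 12.6% in RAW264.7. Ifngr1, the ligand-binding chain of the IFN-γ receptor, was lower in RAW264.7 already in the controls, at 41.9 ± 2.99 against 181 ± 14.1 CPM, and had 19.8 and 19.1 against 157, 179 and 167 CPM after stimulation (log2 fold change -3.11, SE 0.154, adjusted p = 1.61e-43). Ifngr2, the second chain, had 174 and 182 against 332, 297 and 302 CPM and was not called. Socs1, a feedback inhibitor of JAK kinases, had 144, 129.8 and 122 against 2.03 and 1.77 CPM (log2 fold change -6.08, SE 0.258, adjusted p = 1.48e-50).

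Of 21 genes of LPS sensing and its adaptors, 5 were higher in BMDMs (Myd88, Irak4, Tab2, Tbk1 and Ikbkb), where 16% of all tested genes were, none was higher in RAW264.7, and the median was -0.77, or -0.06 under scaling by total counts, where only Irak4 of the 5 kept its call. Tlr4 had 63.3, 66.5 and 83.6 CPM in BMDMs and 48.2 and 47.0 CPM in RAW264.7 (log2 fold change -0.58, SE 0.153, adjusted p = 0.000367), and Cd14 4874, 4617 and 4173 against 3681 and 3419 CPM (log2 fold change -0.36, SE 0.0846, adjusted p = 6.97e-05). Both signs turned under scaling by total counts. Myd88, the first adaptor, had 419, 418 and 354 against 74.5 and 91.1 CPM (log2 fold change -2.25, SE 0.113, adjusted p = 5.20e-43) although its control levels were 47.4 ± 4.93 and 59.0 ± 6.38 CPM. Ikbke, a kinase upstream of Irf3, had overlapping values at 359, 289 and 307 CPM in BMDMs and 354 and 359.8 CPM in RAW264.7. Among the other Toll-like receptors, 5 of 8 were higher in BMDMs: Tlr3, Tlr7, Tlr8, Tlr9 and Tlr13, all nucleic acid sensors of the endosome. Tlr7 had 881, 1126 and 1057 against 145 and 115 CPM (log2 fold change -2.98, SE 0.107, adjusted p = 1.41e-57), while control levels were 289 ± 11.8 and 262 ± 21.4 CPM. Tlr1, Tlr2 and Tlr6, the surface receptors for lipoproteins, were not called.

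Of 12 NF-κB subunits and inhibitors, 8 were higher in BMDMs, none in RAW264.7, with a median of -2.29. Of all tested genes 16% were higher in BMDMs, and the count for this list was 5 under total counts and 6 under upper quartile scaling. The inhibitor Tnfaip3 (A20) had 4105, 3887 and 3808 against 129 and 126 CPM (log2 fold change -4.95, SE 0.111, adjusted p = 1.63e-86), and Rela, the transactivating subunit, 227, 167 and 180.0 against 11.3 and 7.77 CPM (log2 fold change -4.33, SE 0.185, adjusted p = 8.49e-47). Nfkb1, Nfkbia, Nfkbid and Nfkbiz were not called. Among 21 IRF, BATF and AP-1 factors, 7 were higher in BMDMs and 3, Irf4, Fos and Fosl1, were higher in RAW264.7. The latter count lies near the 12.6% of all tested genes that were higher in RAW264.7. Irf1, a transcription factor induced early by IFN-γ, had 2359.9, 2449 and 2171 CPM in BMDMs and 24.7 and 22.2 CPM in RAW264.7 (log2 fold change -6.63, SE 0.132, adjusted p = 1.60e-93), and its RAW264.7 level stayed near the control mean of 21.4 ± 1.86 CPM. Batf2 had 212, 208 and 193 against 6.48 and 6.36 CPM. Fosl1, an AP-1 subunit, had 24.7 and 24.4 CPM in RAW264.7 against 1.83, 1.60 and 0.845 CPM. Of the chromatin and transcription co-factors listed, 5 of 10 were higher in BMDMs (3 under total counts). The list holds Med13, Med13l and Sirt1, which the study reports as raised by LPS in BMDMs but not in RAW264.7. It also holds Setdb2, Kdm4a and Hdac1, which the study reports as changed in LPS-treated BMDMs. The count is therefore not independent of the study's own results, and Med13 and Hdac1 were not called here. Other lists also hold genes that the study names as raised by LPS only in BMDMs, among them Il12a, Il12b, Cxcl1, Cxcl9, Gbp2, C3 and Irf1. The counts for cytokines, chemokines, GBPs, complement, and IRF, BATF and AP-1 factors are therefore not independent of the study either. The methyltransferase gene Setdb2 had 165, 169.8 and 184 against 16.6 and 15.9 CPM (log2 fold change -3.41, SE 0.161, adjusted p = 7.14e-46). The deacetylase gene Sirt1 had 99.1, 129.8 and 117 against 12.2 and 15.2 CPM (log2 fold change -3.06, SE 0.181, adjusted p = 1.36e-35).

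Genes of macrophage identity were unevenly shared. Of 15 lineage factors, 7 were higher in BMDMs and none in RAW264.7 (median -1.87, or -1.66 with Pparg at its bound). Under total counts 4 were higher in BMDMs and 2 in RAW264.7, and under upper quartile scaling 6 and 0. Spi1, the master regulator PU.1, was not called, with 660.4, 569 and 592 against 341 and 337 CPM. Maf had 54.1, 58.5 and 60.8 against 7.70 and 7.06 CPM (log2 fold change -2.97, SE 0.227, adjusted p = 9.16e-26) and Tfec 127, 145 and 126 against 10.1 and 10.9 CPM (log2 fold change -3.64, SE 0.181, adjusted p = 1.96e-43). Of 29 surface receptors, 14 were higher in BMDMs and Cx3cr1, Ccr2 and Trem1 were higher in RAW264.7 (11 and 5 under total counts). Over all tested genes the shares were 16% and 12.6%, and the receptor count for RAW264.7 lies near the latter. In the controls, 5 of the 15 lineage factors and 13 of the 29 receptors were already higher in BMDMs, where 12.7% of all tested genes were. Only 1 receptor and no lineage factor was higher in control RAW264.7. Csf1r, the M-CSF receptor, was not called, at 522, 424 and 509 against 249.9 and 299 CPM, whereas Adgre1, which encodes F4/80, had 1326, 1479 and 1384 against 78.2 and 77.7 CPM (log2 fold change -4.16, SE 0.112, adjusted p = 4.99e-76). Cd274, the checkpoint ligand PD-L1, had 2321, 2172 and 2065 against 17.8 and 15.5 CPM (log2 fold change -7.03, SE 0.138, adjusted p = 1.59e-94) and the Fc receptor gene Fcgr4 440.2, 453 and 388 against 3.65 and 4.24 CPM. Mertk had 189.9, 146 and 159 CPM and 0, at least 136-fold.

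Complement genes were higher in BMDMs for 6 of 10 members, and only properdin (Cfp) was higher in RAW264.7, against 16% and 12.6% of all tested genes. The list median was -5.25 (-4.18 without RAW264.7 replicate 1 and -6.69 without replicate 2, with 11 members tested in each). The C1q subunit gene C1qb had 3925, 3918 and 3554 CPM in BMDMs and 4.86 and 5.65 CPM in RAW264.7 (log2 fold change -9.47, SE 0.161, adjusted p = 5.21e-103), and Cfb, a protease component of the alternative pathway, 194, 167 and 155 against 0.405 and 1.06 CPM. Apoe, Ctsb, Psap and Gpnmb were chosen after their values were seen. Apoe, a lipid carrier of macrophages, had 16667, 16520.3 and 15744 CPM in stimulated BMDMs and 4.05 and 4.24 CPM in stimulated RAW264.7 (log2 fold change -11.92, SE 0.174, adjusted p = 7.04e-112), with 18218 ± 1523 and 5.57 ± 1.94 CPM in the controls. The lysosomal protease gene Ctsb had 21145, 20978 and 18827 against 1288 and 1339.8 CPM (log2 fold change -3.95), Psap 14257, 14496 and 13452 against 514 and 541 CPM and Gpnmb 8839, 8074 and 8245 against 28.4 and 23.3 CPM. These 4 genes differed by similar amounts in the controls, where their log2 fold changes were -11.67, -3.97, -4.19 and -8.68.

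Effector and metabolic enzymes showed both directions. Of 12 tested genes of nitric oxide, itaconate and prostaglandin synthesis, 6 were higher in BMDMs and 2, Ptgs1 and Alox5, were higher in RAW264.7. The count higher in BMDMs was 3 under total counts and 4 under upper quartile scaling. Nos2, the inducible nitric oxide synthase, had 518, 379 and 483 CPM in BMDMs and 7.29 and 5.30 CPM in RAW264.7 (log2 fold change -6.19, SE 0.177, adjusted p = 5.63e-65), and the arginine transporter gene Slc7a2 2351, 2377 and 2463 against 2.43 and 2.12 CPM (log2 fold change -10.01, SE 0.179, adjusted p = 1.74e-99). Irg1, which makes itaconate, rose in both and had 17441, 17385 and 15010.3 against 3994 and 3937 CPM (log2 fold change -2.07, SE 0.0914, adjusted p = 4.82e-49), a call that was lost under total counts, under upper quartile scaling and in a fit of the 5 stimulated libraries alone. Ptgs2, the inducible cyclooxygenase, was not called at 6196, 7856 and 7274 against 2326 and 2171 CPM. Arg1 had 0 counts in both stimulated groups and Ass1 had 0 counts in all 10 libraries. Of 6 NADPH oxidase subunits, Cybb, Cyba and Ncf1 were higher in BMDMs (under total counts only Cybb, with 1 subunit higher in RAW264.7), with Cybb at 5403, 6351 and 5587 against 745 and 742 CPM (log2 fold change -2.96, SE 0.0954, adjusted p = 1.03e-65). In glycolysis, 3 of 18 genes were higher in RAW264.7 (Pkm, Slc16a1 and Slc16a3), 3 were higher in BMDMs (Hk1, Hk3 and Pfkfb3) and the median was 1.08. These counts lie near the shares of all tested genes (12.6% and 16%), and 8 were higher in RAW264.7 under total counts and 5 under upper quartile scaling, with 3 higher in BMDMs in both. Hk3, a hexokinase, had 1345, 1227 and 1263 against 27.5 and 43.1 CPM (log2 fold change -5.16, SE 0.125, adjusted p = 9.27e-82), and Slc16a3, a lactate exporter, 59.6, 38.4 and 40.6 against 375 and 399.7 CPM (log2 fold change 3.08, SE 0.126, adjusted p = 4.13e-53). The polyamine enzyme gene Odc1, chosen after its values were seen, had 3170.4 and 3398 CPM in RAW264.7 and 76.1, 84.9 and 74.3 CPM in BMDMs (log2 fold change 5.38, SE 0.107, adjusted p = 4.71e-94).

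Cell division genes were higher in RAW264.7, before and after stimulation. Of 32 mitosis genes, 30 were called higher in RAW264.7 and none in BMDMs, with a median of 4.46, where 12.6% of all genes were called in that direction. Of 32 DNA replication genes, 23 were higher in RAW264.7 and none in BMDMs (median 3.33). Both lists were already higher in control RAW264.7, with 31 and 27 calls and medians of 3.35 and 2.94, where 9.85% of all tested genes were called. Ccna2, the cyclin of S phase and G2, had 261 and 284 CPM in RAW264.7 and 6.42, 4.81 and 5.07 CPM in BMDMs (log2 fold change 5.64, SE 0.193, adjusted p = 2.17e-62). Cdc20, an activator of the anaphase-promoting complex, had 74.1 and 71.7 CPM against 1.83, 0 and 0 CPM, a ratio of 128 (95% counting interval 35.3 to 1063). Mcm3, a subunit of the replicative helicase, had 89.1 and 89.3 against 2.75, 5.61 and 3.38 CPM (log2 fold change 4.47, SE 0.261, adjusted p = 7.90e-36) and Pole, a DNA polymerase subunit, 46.6 and 48.0 against 2.75, 0 and 3.38 CPM. Mki67 and Pcna, which are widely used as proliferation markers, did not follow: Mki67 had 132, 137 and 148 CPM in BMDMs and 57.9 and 68.5 CPM in RAW264.7 (log2 fold change -1.13), and Pcna 293, 355 and 325 against 168 and 179 CPM (log2 fold change -0.91). In the controls Mki67 was called in the other direction, at 31.5 ± 1.65 CPM in BMDMs and 135 ± 19.8 CPM in RAW264.7.

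G1 regulators went both ways, with 5 of 15 higher in each kind of cell (3 in BMDMs under total counts and under upper quartile scaling). Over all tested genes, 12.6% were higher in RAW264.7 and 16% in BMDMs. Ccnd1, cyclin D1, had 262 and 267 CPM in RAW264.7 and 11.9, 8.81 and 11.8 CPM in BMDMs (log2 fold change 4.61, SE 0.173, adjusted p = 2.01e-57), and its partner kinase gene Cdk4 478 and 462 against 58.7, 63.3 and 67.6 CPM (log2 fold change 2.89, SE 0.115, adjusted p = 1.96e-54). Ccnd2, cyclin D2, went the other way, at 6.89 and 9.18 against 104, 96.9 and 131 CPM (log2 fold change -3.76, SE 0.200, adjusted p = 2.32e-40). Cdkn1a, which encodes the inhibitor p21, had 1292, 1196 and 1239 CPM in stimulated BMDMs and 182 and 183 CPM in stimulated RAW264.7 (log2 fold change -2.77, SE 0.0991, adjusted p = 5.61e-60), from 26.4 ± 0.509 and 84.9 ± 2.88 CPM in the controls. Of these 4 genes, only Ccnd1 was called between the controls.

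**Figure D4:**
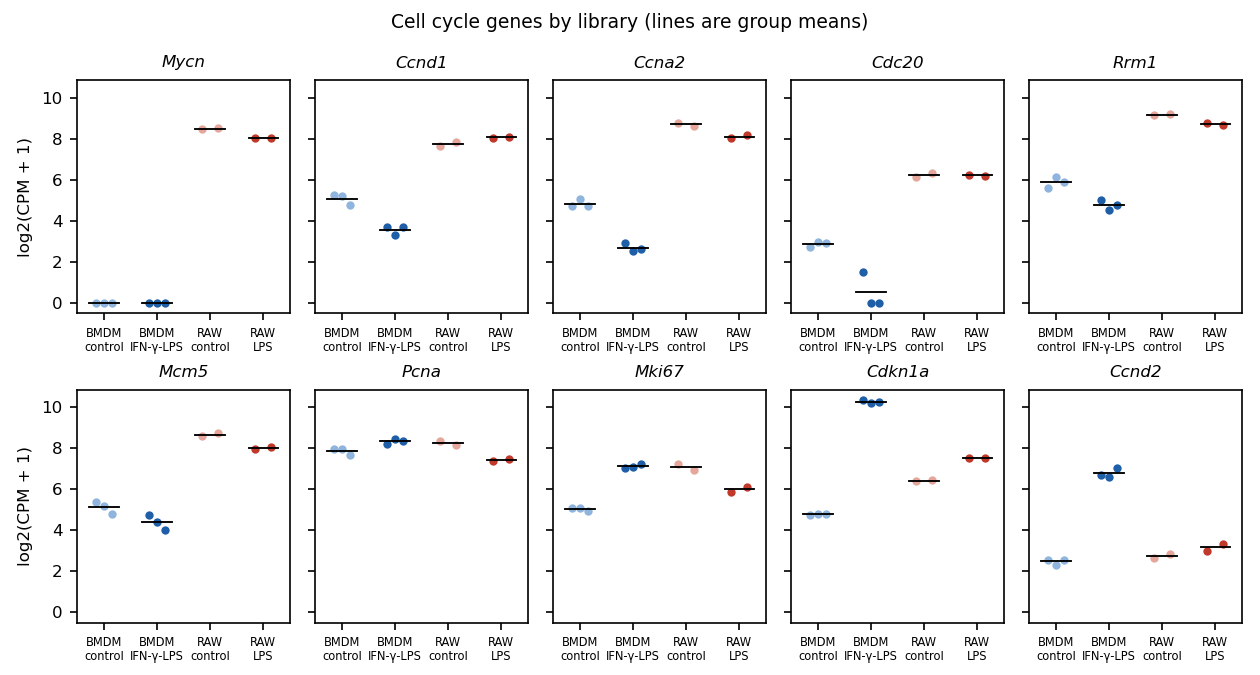
Each panel gives log2(CPM + 1) of 1 cell cycle gene in each library of the 4 groups, with group means as lines. Mycn, Ccnd1, Ccna2, Cdc20, Rrm1 and Mcm5 are higher in both RAW264.7 groups, whereas Mki67, Pcna, Cdkn1a and Ccnd2 are higher in stimulated BMDMs than in stimulated RAW264.7.

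Set against their own controls, 234 genes rose (2.28% of those tested) and 85 fell (0.828%) in LPS-treated RAW264.7, while 825 rose (8.03%) and 726 fell (7.07%) in BMDMs treated with IFN-γ and LPS. These 2 contrasts share no sample. Of the genes that rose, 162 rose in both, which is 69.2% of those in RAW264.7 and 19.6% of those in BMDMs. Of the 162, 81 ended higher in stimulated BMDMs, 5 higher in stimulated RAW264.7 and 76 without a call between the stimulated groups. Ccl22, a T cell attractant, was one of the 76, with 127, 135 and 133 CPM in BMDMs and 116 and 129 CPM in RAW264.7, which overlapped. Ccl7, a monocyte attractant, had 120.2, 133 and 123 CPM in BMDMs and 154 and 137 CPM in RAW264.7, without overlap and without a call.

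The change itself differed, by the interaction term of the same fit, for 379 genes (3.69%) with a more positive change in RAW264.7 and 518 (5.04%) with a more positive change in BMDMs. All 30 type I interferon-response genes and 14 of 16 class I genes were among the latter. Under upper quartile scaling the share of calls with a more positive change in RAW264.7 was 56.2% against 42.3% with TMM, and under total counts it was 64.8%. The 290 tested genes at 0 in all RAW264.7 libraries, such as Il12b and Cxcl9, have no measurable response there, and none of them was called. Lif had the largest difference toward RAW264.7 among called genes at 50 CPM or more: it went from 0 to 539 and 561 CPM there and from 1.30 ± 0.863 to 29.3, 23.2 and 16.9 CPM in BMDMs. For Cd300lb, a receptor of the CD300 family, RAW264.7 stayed at 232 and 253 CPM near its control (189 ± 3.24 CPM) while BMDMs fell from 283 ± 27.8 to 1.83, 0.801 and 1.69 CPM. The myeloid factor gene Cebpa likewise fell in BMDMs, from 459 ± 39.6 CPM to 14.7, 8.81 and 13.5 CPM, and had 36.5 and 37.4 CPM in stimulated RAW264.7.

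Direction turned between controls and stimulated cells for 19 genes. 15 were called higher in control RAW264.7 and then higher in stimulated BMDMs: Ifi203, Slfn3, Socs3, Phf11b, Phf11d, Dennd3, Rnd1, H2-Q4, Tnfsf9, Cd74, Slc2a6, Cst7, Shisa3, Hcar2 and Usp18. Socs3, a feedback inhibitor of gp130 signalling, went from 0.743 ± 0.857 CPM in BMDM controls and 6.42 ± 0.306 CPM in RAW264.7 controls to 805, 711 and 689 CPM and 117 and 132 CPM. The other 4 were Lif, Myc, Cnr2 and Dedd2, which were higher in control BMDMs and then higher in stimulated RAW264.7. Myc had 12.4 ± 4.35 CPM in control BMDMs and 0.365 ± 0.516 CPM in control RAW264.7, then 7.34, 4.01 and 0.845 CPM in stimulated BMDMs and 16.6 and 18.7 CPM in stimulated RAW264.7. The Myc call was lost without BMDM replicate 3 (log2 fold change 1.66). Dedd2 rested on 1.62 and 2.47 CPM in RAW264.7 against 0 in BMDMs, and its call was lost without any 1 of the BMDM libraries, without RAW264.7 replicate 2 and with DESeq2. The control call of Lif rested on 1.30 ± 0.863 CPM against 0, which lies at the level of 3 counts.

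**Figure D5:**
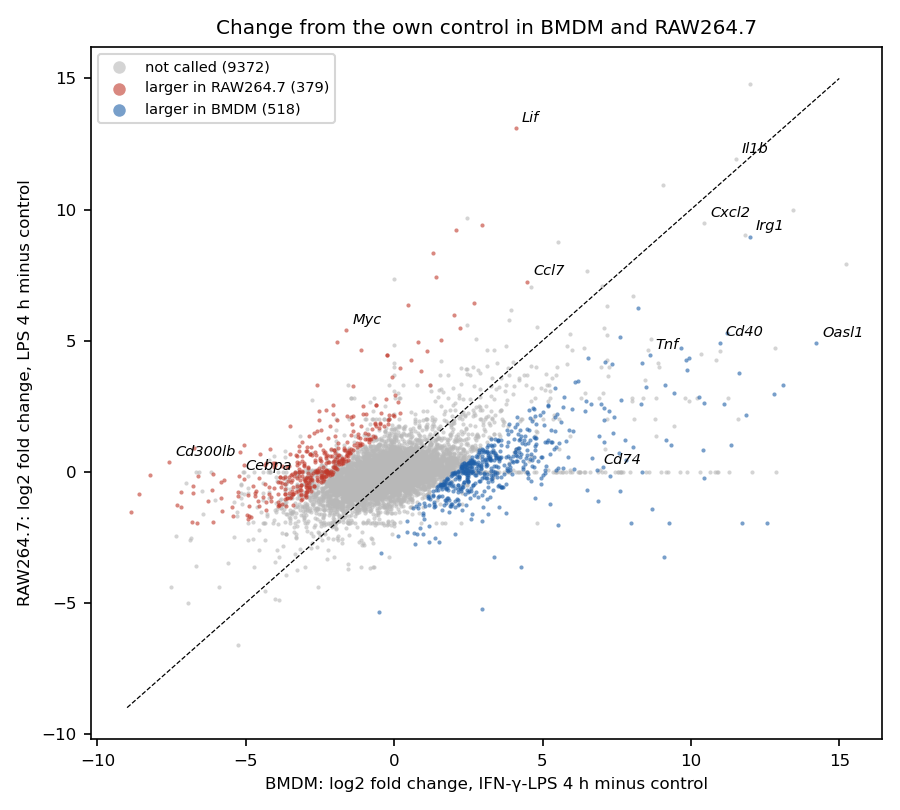
Each point is a tested gene, with the log2 fold change against the own control in BMDMs on the x axis and in RAW264.7 on the y axis. Red and blue mark the 379 and 518 genes whose change was more positive in RAW264.7 and in BMDMs, the dashed line marks equal change, and the points at 0 on the y axis and far right are genes without reads in RAW264.7, placed with a small prior count.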

How the data were processed

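RNA of the 5 stimulated and 5 control samples was sequenced by the study, and the authors trimmed reads with Trimmomatic 0.33 and aligned them with STAR 2.5.1 to mm10, per the labels and the study's methods. The deposited files hold raw counts per gene, unstranded and for each strand, and the sense column was used, together with the gene symbols as given. Rows of reads on no gene (62.7 to 67.2% of that column's reads) and Rn45s were left out. Genes were filtered by filterByExpr, scaled with TMM and tested with the robust quasi-likelihood test of edgeR 4.0.16 in R 4.3.3, with 1 mean per group over the 10 samples and Benjamini-Hochberg adjustment over all 10269 genes. The script was tested on simulated data. CPM in the text uses the same scaling, and bounds use 3 counts in a library.

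Named genes were the 12 largest called differences in each direction with at least 50 CPM in the higher group and no overlap, up to 4 called members of each list with at least 20 CPM by size of difference, and the 5 largest response differences in each direction. The other genes given values (Tnf, Il6, Il1b, Cxcl2, Ccl22, Tlr4, Cd14, Irg1, Apoe, Mki67, Cdkn1a, Myc and the like) were chosen after their values were seen. The comparison and the lists were chosen with earlier results of these data known. Upstream sequences came from RefSeq (GRCm38.p6), matched by symbol. The values of 1 gene are not reported here. Alternatives were other scalings (RLE, total counts, upper quartile), count filters, DESeq2 1.42.0, unstranded counts, Rn45s kept, a fit of only the groups compared, a replicate block, other cutoffs, and each sample left out. Leaving out Lars2 and Mir6236 as well was added after seeing the data.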

Additional observations from a re-analysis of the deposited data

Results flagged for a closer look

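The change from the own control differed between RAW264.7 and BMDMs by the interaction term of the fit (edgeR) for 379 genes with a more positive change in RAW264.7 and 518 with a more positive change in BMDMs. Among called genes with at least 50 CPM in the higher stimulated group, the largest differences toward RAW264.7 on the log2 scale were 9 for Lif, 7.94 for Cd300lb, 7.14 for Serpinb2, 6.46 for Kif18b and 6.38 for Cdca7. Serpinb2, an inhibitor of plasminogen activation, rose from 0 to 37.3 and 38.1 CPM in RAW264.7 and from 15.5 ± 4.98 to 55.0, 68.1 and 74.3 CPM in BMDMs. The kinesin gene Kif18b and the MYC target gene Cdca7 fell in BMDMs from 6.08 ± 1.45 and 9.02 ± 2.16 CPM to 0. In stimulated RAW264.7, Kif18b had 56.3 and 63.2 CPM and Cdca7 had 66.0 and 61.1 CPM.

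The largest differences toward BMDMs among such called genes were -14.51 for Tgtp2, -13.67 for Ifi205, -11.19 for Tnfsf10, -10.66 for Gem and -10.34 for Ifi44. Tnfsf10, the death ligand TRAIL, had 151, 155 and 145 CPM in stimulated BMDMs and 0 in both stimulated RAW264.7 libraries. Gem, a small GTPase, had 82.5, 87.3 and 91.2 CPM against 1.22 and 0.353 CPM. Ifi44, an interferon-response gene, had 0 in control BMDMs and 166, 161 and 166 CPM after stimulation, while RAW264.7 went from 41.7 ± 4.26 to 83.8 and 84.4 CPM. Each of these 10 genes is at or near 0 in at least 1 of the 4 groups, where the size of the difference depends on the prior count and is not a measured fold.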

How the results depend on the processing

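Counts of calls moved most with the cutoff and the count filter. With a log2 fold change of 2 as the null hypothesis, 659 genes were higher in stimulated RAW264.7 and 1203 in stimulated BMDMs, 567 and 856 were higher in control RAW264.7 and control BMDMs, and 72 and 225 differed in response toward RAW264.7 and BMDMs. At an FDR of 0.01 with any size, the counts toward RAW264.7 and BMDMs were 3332 and 3721 when stimulated, 3383 and 3566 in controls and 1137 and 1688 in response. With at least 10 counts in every sample they were 291 and 599, 306 and 409, and 95 and 284, since genes absent from either kind of cell were then not tested. Scaling by total counts gave 2160 genes higher in stimulated RAW264.7 against 1138 in BMDMs, and 668 response differences toward it, and turned Cd14 (0.35), Tlr4 (0.13), Cxcl2 (0.48), Ccl22 (0.61) and Cd80 (0.59). Upper quartile scaling turned Cxcl2 (0.065), Ccl22 (0.20) and Cd80 (0.18). The cause was not tested. DESeq2 shared 1181 of the 1291 calls higher in stimulated RAW264.7 and 1578 of the 1638 higher in BMDMs. Of 2658 values of 162 named genes under 17 settings, 2611 kept direction and call, 34 lost the call, 5 gained it and 8 turned. Without 1 library, calls toward RAW264.7 and BMDMs were 1256 to 1318 and 1603 to 1704 when stimulated, 1017 to 1047 and 1260 to 1399 in controls, and 325 to 406 and 486 to 526 in response. With the replicate block, counts were 1273 and 1638, 1009 and 1305, and 365 and 516, and of the named genes only Myc lost its call (1.96). Deviations of same-numbered samples had correlations of -0.116 to 0.0517 over 13 pairs, which include pairs of BMDM and RAW264.7 samples. Same-numbered control and stimulated BMDMs had 0.0404, 0.0517 and 0.0124, and those with different numbers -0.0456 to 0.00623. Whether same-numbered BMDM samples share mice or a preparation cannot be told from these small values. Genes under 1.05 to 2.75 CPM, and responses from a control at 0, are beyond this depth.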
